A study of Homo sapiens with 42 samples.

Results

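The peaks described here lie within 2 Mb on each side of MYC on chromosome 8 (127735434 to 127742951, RefSeq GRCh38.p14), counted in each sample by the position of the summit. Of the 9861908 peaks in the 42 lists, 18216 had their summit in this window. Laid over each other, the strict peaks of all lists (those with −log10 q of at least 5) gave 645 regions of 500 bp in the window, of 315188 in the genome. The window was chosen by position and not by any measured value.

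MYC is a transcription factor that drives growth and division, and its dose is raised in many cancers. The gene sits in a wide stretch with few other protein-coding genes, and much of its control comes from enhancers far away on either side, which differ between tissues. On the side of lower coordinates lie LRATD2 and the long non-coding RNA genes PCAT1, CCAT1, CASC8 and CASC11, a stretch that holds several inherited risk loci for cancer. On the other side lie PVT1, a long non-coding RNA gene that neighbours MYC, then CCDC26, whose surroundings hold a known cluster of MYC enhancers of blood cells, and GSDMC. BAF complexes are chromatin remodellers that use the ATPase SMARCA4 or SMARCA2 to move nucleosomes, and are known for keeping distal enhancers open.

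Chromatin accessibility was measured by ATAC-seq, in which a transposase cuts DNA where nucleosomes leave it open. The 7 human cancer lines, all labelled WT, came from a uveal melanoma (92-1), a melanoma (A375), a prostate adenocarcinoma (22RV1), a colorectal adenocarcinoma (HCT116), an invasive breast carcinoma (DU4475), a rhabdomyosarcoma (RD) and an acute myeloid leukemia (MV411). Each was treated for 4 h with FHT-1015, a dual inhibitor of SMARCA4 and SMARCA2, or with DMSO as the negative control, in 3 biological replicates per group. The comparisons ask which regions around MYC were open in which line, and which of them were still called after the inhibitor. Each line is a single culture model of its tumour type, and an open region is not by itself shown to be an enhancer of MYC.

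The deposited lists held 114291 to 431956 peaks per sample, of which 1412 to 121774 were strict. The number of reads is unknown, and a background pileup recovered from the peaks, used as a stand-in for depth, ran from 0.0341 to 2.79. The FHT-1015 samples of 92-1 stand apart, with replicates 2 and 3 holding 2037 and 1412 strict peaks in the whole genome, so results are also given without this line. Background was lower with FHT-1015 in MV411 (0.260 to 0.270 against 0.400 to 0.495) and higher in 22RV1 (0.768 to 1.02 against 0.532 to 0.702). Among genes that mark cell types, an end of MYOG (muscle) had a strict peak in 3 of 3 DMSO samples of RD and in 0 of the 18 others, and PTPRC (blood) likewise in MV411 alone. Other marks were less selective: MYOD1 (muscle) had one in 3 of 3 DMSO samples of RD, 22RV1 and HCT116, and SPI1 (myeloid) in 3 of 3 of MV411, 22RV1 and DU4475. KLK3 (prostate) had none in 22RV1, SOX10 (melanocytes) had none in 92-1 and 1 of 3 in A375, and CDX1 (colon) had none in HCT116 and 3 of 3 in DU4475. The peak names of 92-1, 22RV1, HCT116 and MV411 hold the word small and those of the others do not, and what it marks is not given, so differences between lines cannot be told apart from it.

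Open regions around MYC differed from line to line. A region was called open in a line when all 3 DMSO samples had a strict peak there. Of the 645 regions, 242 were open in any line, and 193 of these were open in a single line. No region was open in all 7 lines, 1 was open in 6, 1 in 5, 2 in 4, 9 in 3 and 36 in 2. Over the genome most open regions were also open in a single line, 87201 of 122696, and 2389 were open in all 7. The map of open regions around MYC shows this sparse sharing.

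**Figure D1:**
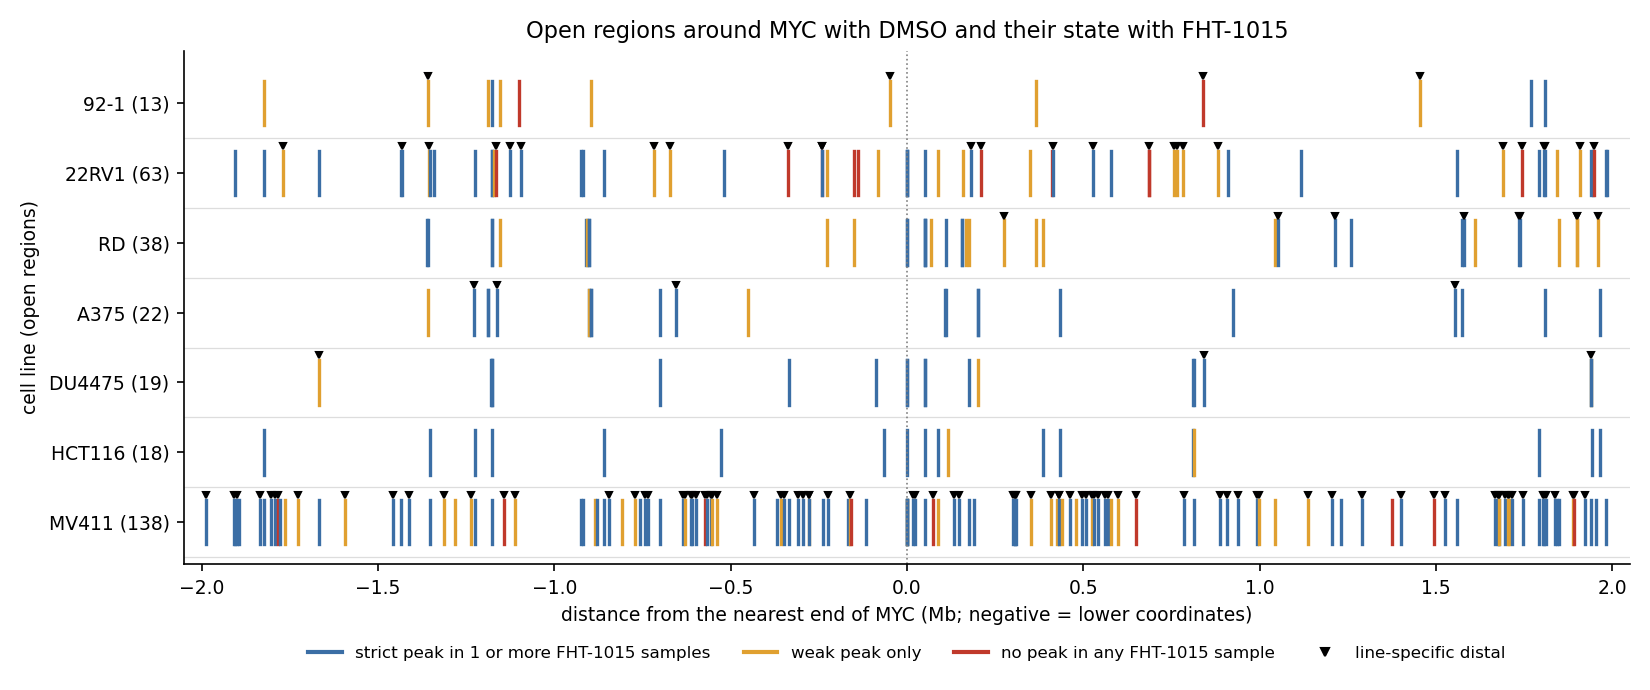
Open regions around MYC in each cell line, by distance from the nearest end of MYC in Mb (x axis), with the number of open regions beside the line's name; colour gives their state in the 3 FHT-1015 samples and triangles mark line-specific distal regions. MV411 has 138 open regions and the other lines 13 to 63, and none of the marks in RD, A375, DU4475 or HCT116 is of the colour for no peak in any FHT-1015 sample.

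The region shared most widely lay at an end of LRATD2, a protein-coding gene at the far lower side (chr8:126558211-126558710, 1177 kb from MYC). It was open in every line but A375, with a strict peak in 20 of 21 DMSO and 18 of 21 FHT-1015 samples. Its fold enrichment over background was 16.1 to 19.9 with DMSO and 18.8 to 22.2 with FHT-1015 in 22RV1, and 8.08 to 9.37 and 8.71 to 9.31 in DU4475, overlapping in both. The groups also overlapped in HCT116, at 11.7 to 19.9 and 13.4 to 15.6. They did not overlap in MV411 (25.9 to 29.6, then 21.6 to 24.8), RD (6.996 to 7.74, then 3.21 to 5.22) or 92-1 (8.44 to 16.01, then 6.64, no peak and 2.90). Folds, p and q of peaks are the authors' own and are used to describe or rank peaks within a list. Folds of different lists are set side by side, here and below, as a description only, since a fold can move with depth. The part of depth in them was not tested.

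Next came a region at the start coordinate of PVT1, 51.6 kb beyond MYC (chr8:127794254-127794753), open in 22RV1, RD, DU4475, HCT116 and MV411. It had a strict peak in 18 of 21 DMSO samples and in 16 of 21 FHT-1015 samples. In DU4475 its folds were 11.8, 11.7 and 11.1 with DMSO and 9.10, 11.2 and 11.4 with FHT-1015. The DMSO and FHT-1015 values thus overlapped at this end of PVT1 in that line.

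Line-specific distal regions were open in 1 line, had no strict peak in the 18 DMSO samples of the others, and lay over 5 kb from MYC and over 1 kb from the ends of protein-coding genes. There were 135 of them in the window. MV411 held 89 of its 132 open distal regions as such (64.4% over the genome), 22RV1 26 of 58 (34.9% over the genome) and RD 9 of 34 (23.8%). 92-1 held 4 of 12 (29.3%), A375 4 of 22 (21.5%), DU4475 3 of 15 (26.0%) and HCT116 0 of 16 (3.91%). The window was thus close to the genome in MV411 and RD, and these are counts with no test.

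The 16 open distal regions of HCT116 were largely shared: 8 were also open in MV411 (50% of the HCT116 regions and 6.06% of the MV411 regions) and 7 in 22RV1 (43.8% and 12.1%). A375 and MV411 shared none of their 22 and 132. The 2 melanomas, A375 and 92-1, shared 3 (13.6% and 25%). Sharing between pairs of lines was not counted over the genome, so these counts only describe the window.

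The acute myeloid leukemia line had line-specific regions on both sides, 38 on the lower and 51 on the higher side. The band from 1500 to 2000 kb beyond MYC held 17 of them. CCDC26, the gene beside the blood enhancer cluster, held 19 of the 138 open regions of MV411, 7 of 63 in 22RV1, 6 of 38 in RD and 0 of 19 in DU4475, so MV411 did not hold a larger part of its regions there than RD. Of these, 16 were line-specific in MV411, 5 in 22RV1 and 4 in RD. One inside CCDC26, 1746.5 kb from MYC (chr8:129489203-129489702), had folds of 29.0, 23.9 and 30.2 with DMSO and 21.8, 21.7 and 18.6 with FHT-1015. All 6 peaks were strict. Line-specific regions were chosen through their DMSO peaks, which by itself favours lower values with FHT-1015, so their folds are given as a description.

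On the lower side of MV411, a region 1413 kb from MYC had folds of 31.4, 34.8 and 35.1 with DMSO and 14.4, 11.03 and 8.11 with FHT-1015. A region inside CASC8, a long non-coding RNA gene, had 33.7, 33.7 and 28.9 with DMSO and 17.6, 21.2 and 15.5 with FHT-1015. A region 508 kb beyond MYC had 18.4, 19.4 and 19.8 with DMSO and 20.4, 17.8 and 22.0 with FHT-1015. All of these peaks were strict as well.

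The muscle tumour line RD had its 9 line-specific regions all on the higher side, 6 of them between 1500 and 2000 kb. Most of its open distal regions lay on that side too, 25 against 9 on the lower side. One lay inside LINC00976, a non-coding RNA gene, 1215 kb from MYC, with folds of 14.4, 10.6 and 9.87 with DMSO and 5.63, 4.92 and 9.74 with FHT-1015. Another at 1579 kb had 9.27, 9.58 and 9.85 with DMSO and 5.96, 6.26 and 8.67 with FHT-1015. All 6 peaks of the latter were strict, and 2 of the 3 FHT-1015 peaks of the former.

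In the prostate line 22RV1, 11 line-specific regions lay on the lower and 15 on the higher side. The 1 at 415 kb (chr8:128157232-128157731) had folds of 21.6, 21.8 and 20.1 with DMSO and 17.7, 19.4 and 18.8 with FHT-1015 and stayed strict in all 6 samples. The 1 inside CCDC26 at 1809 kb had folds of 13.8, 17.1 and 16.9 with DMSO, while FHT-1015 replicate 1 had no peak and the others had 5.53 and 3.88. PCAT1, named for prostate cancer, held 1 line-specific region of 22RV1, with no strict peak after the inhibitor.

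The shares of strict peaks in the window differed between lines in DMSO by more than the replicates did (between-line part of the sum of squares 81.5%, permutation test of line labels over 21 samples, one-sided, p = 0.00146). The order was MV411 with 0.199% ± 0.00267, HCT116 with 0.188% ± 0.0162, RD with 0.169% ± 0.0110, 22RV1 with 0.168% ± 0.0150, 92-1 with 0.167% ± 0.0104, A375 with 0.148% ± 0.0456 and DU4475 with 0.0813% ± 0.0143 (SD, n = 3). Neighbours in this order lay within their spread. DU4475 overlapped with A375, whose replicate 3 had 0.0948%, and lay below the other 5 lines. Among the 4 lines whose peaks are named with small the part between lines was 64.5% (permutation p = 0.0434), and among the other 3 it was 72.3% and did not pass the threshold (permutation p = 0.0609).

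Chromosome 8 as a whole took different parts of the deposited lists, weak peaks included. They ran from 7.15% ± 0.164 in MV411 and 6.45% ± 0.320 in HCT116 to 4.65% ± 0.141 in A375 and 4.53% ± 0.188 in DU4475 (SD, n = 3). Its part of the strict peaks was not compared. As a share of the strict peaks of chromosome 8 the window held 3.54% ± 0.190 in RD, 3.34% ± 0.260 in HCT116, 3.16% ± 1.02 in A375, 2.96% ± 0.277 in 22RV1, 2.96% ± 0.0484 in MV411, 2.052% ± 0.322 in 92-1 and 1.97% ± 0.239 in DU4475. The lines still differed (70.8% between lines, permutation p = 0.00515), in another order than by share of all strict peaks, with RD first and MV411 level with 22RV1. The local background also differed, as a median multiple of the sample's background. In RD with DMSO it was 1.34, 1.54 and 1.44 for window peaks against 1.08, 1.35 and 1.25 for the list. HCT116 had 1.72, 1.28 and 1.36 against 1.43, 1.07 and 1.12. DU4475 had 1.08, 1.08 and 1.07 against 1.17, 1.25 and 1.18. The other lines were level or mixed. The part of this in the shares was not tested.

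FHT-1015 left fewer strict peaks around MYC. The number of strict window peaks fell by 1.46 on the log2 scale of the number plus 1, as the mean over lines, and was lower in 7 of 7 of them. Treatment labels were permuted within each line (two-sided permutation test), and p = 1e-05 was the smallest that 100000 draws can give. Without 92-1 it fell by 1.08 (permutation p = 1e-05). In the deposited lists, which hold many weak peaks, the number of window peaks was -0.22 on the log2 scale, lower in 5 of 7 lines (permutation p = 0.0525).

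In MV411 the window had 242, 224 and 207 strict peaks with DMSO and 96, 98 and 89 with FHT-1015. In 22RV1 it had 101, 141 and 100 and then 40, 52 and 43, and in RD 71, 87 and 72 and then 21, 12 and 27. These 3 lines had groups far apart. In 92-1 the numbers were 119, 41 and 23 and then 16, 0 and 2, in DU4475 63, 38 and 35 and then 23, 25 and 20. In A375 (106, 114 and 25, then 20, 101 and 41) and HCT116 (39, 50 and 48, then 34, 47 and 22) the groups overlapped.

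Within a line, 3 samples against 3 cannot give an exact two-sided permutation p below 0.1. It was 0.1 in 5 lines, 0.2 in HCT116 and 0.5 in A375 (adjusted over the 7 lines 0.14, 0.233 and 0.5). The effect was not shown to differ between lines (permutation of treatment labels within lines, SD of the log2 effects over lines 1.12, one-sided, p = 0.314).

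**Figure D2:**
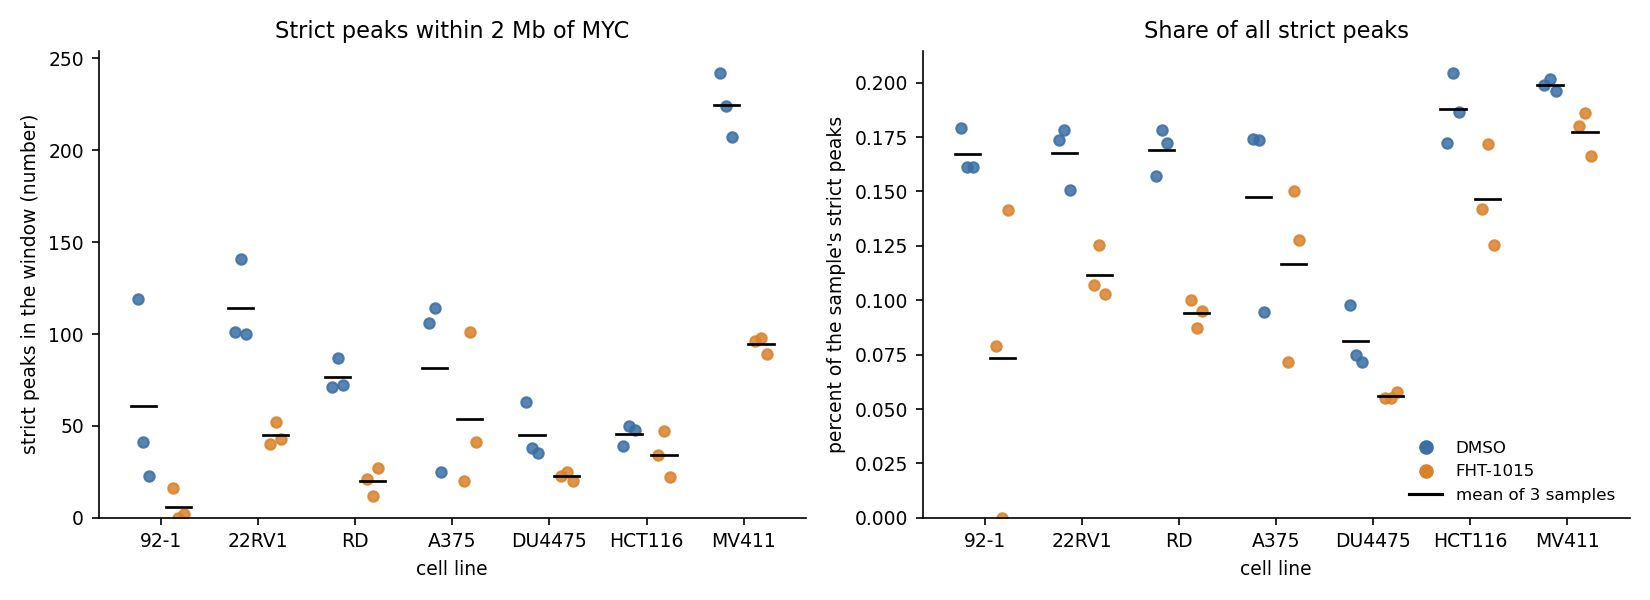
Strict peaks within 2 Mb of MYC in each sample (left, number) and as a percent of all strict peaks of the sample (right), with 3 DMSO and 3 FHT-1015 samples per line; lines mark the means. Numbers with FHT-1015 lie below all DMSO samples except in A375 and HCT116, and shares except in A375.

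The whole strict lists were also shorter with FHT-1015, with means of 22.4% (92-1) to 94.6% (HCT116) of those with DMSO, so the window was taken as a share of each sample's strict peaks. This share fell by 0.0491 percentage points in the same permutation test (p = 1e-05), and each of the 7 lines had a lower mean. RD had 0.169% ± 0.0110 with DMSO and 0.0942% ± 0.00655 with FHT-1015, 22RV1 0.168% ± 0.0150 and 0.112% ± 0.0121, and MV411 0.199% ± 0.00267 and 0.177% ± 0.0102 (SD, n = 3). As a share of the whole deposited lists the difference was -0.00336 points (permutation p = 0.391).

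Most strict window peaks were distal, 97.5% ± 0.341 in MV411 and 91.3% ± 0.468 in RD with DMSO, against 86.1% ± 0.566 and 46.8% ± 1.75 of all strict peaks of those samples (SD, n = 3). With FHT-1015 the RD lists were 26.6% ± 5.86 distal. Set against distal strict peaks alone, the window share fell by 0.0434 points (permutation p = 0.0005, 7 of 7 lines), and by 0.0335 without 92-1 (p = 0.00302). In MV411 that difference was -0.000664 points.

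The recovered background was then made alike within each line by thinning, leaving out 92-1, though the numbers of peaks left still differed. Peaks were kept at −log10 p of at least 5 after thinning, not at the strict q, and those above 30 were left whole. With pileups thinned to the lowest background of the line, the share of distal peaks fell by 0.0319 points (permutation p = 0.00026, lower in 5 of 6 lines). With pileups thinned to 0.5 of it, where every sample is thinned, the difference was -0.0272 points, lower in 5 of 6 lines, and did not pass the threshold (permutation p = 0.141). A fall of the window beyond that of distal peaks in general therefore depended on the thinning. The window share of all peaks kept in this way fell by 0.0373 points under the first and fell by 0.0412 under the second (permutation p = 1e-05 for each).

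Strict peaks far from MYC fell more than those at MYC itself, whose mean share of the lists was higher with FHT-1015. Within 5 kb of MYC the number of strict peaks was -0.25 on the log2 scale with FHT-1015 and did not pass the threshold (permutation p = 0.167 before and after adjustment over 8 places). Beyond 5 kb it fell by 1.53 (adjusted p = 4e-05, 7 of 7 lines). The difference between these changes was itself -1.28 (two-sided permutation p = 1e-05, 7 of 7 lines), and -1.003 without 92-1 (p = 1e-05). These places were chosen after their values were seen. Over the genome, distal strict peaks also fell more than all strict peaks in each line. They fell to 27.7% against 46.5% of the DMSO mean in RD, and to 87.1% against 94.6% in HCT116. Far minus near was not set against other gene ends, so it is not shown to be particular to MYC. Near MYC the mean numbers were small (3.81 and 2.90), where the 1 added shrinks a log2 change more. Without A375 DMSO replicate 3, which had no strict peak within 5 kb, the number near MYC fell by 0.35 (permutation p = 0.00913).

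As a share of the strict peaks of a sample, peaks beyond 5 kb fell by 0.0513 percentage points (adjusted p = 8e-05, 7 of 7 lines). The share within 5 kb of MYC was higher with FHT-1015, 0.00920% against 0.00704% in the mean over samples, lower in 2 of 7 lines, and did not pass after adjustment (permutation p = 0.0335, adjusted p = 0.0894). It did pass without 92-1 (adjusted p = 0.0201).

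An end of MYC had a strict peak within 1 kb in 19 of 21 DMSO samples and 19 of 21 FHT-1015 samples. In RD the strongest peak from 500 bp before to 1000 bp after the start coordinate had folds of 5.59, 5.14 and 5.33 with DMSO and 5.28, 3.99 and 5.56 with FHT-1015. In DU4475 it had 5.66, 4.72 and 4.95 and then 4.51, 5.54 and 5.86. The groups overlapped in both lines, and in all others but A375 and 92-1. A375 had 4.385, 4.81 and 3.51 with DMSO and, above all of these, 4.89, 6.01 and 5.07 with FHT-1015. In 92-1 it had 5.58, 6.03 and 5.195 with DMSO and, below these, 4.79, 3.68 and no peak with FHT-1015.

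A further peak 1235 to 1256 bp before the start coordinate was strong in 22RV1, with folds of 7.19, 10.98 and 13.4 with DMSO and 12.1, 9.18 and 11.5 with FHT-1015. It was not listed in any of the 6 RD samples. HCT116 had its strongest MYC peak at the other end of the gene, with folds of 14.8, 13.2 and 10.5 with DMSO and 11.7, 15.1 and 7.32 with FHT-1015. MV411 had the same end peak at 9.28, 10.6 and 8.79 with DMSO and, below all of these, 6.08, 5.14 and 4.95 with FHT-1015.

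The number of strict peaks inside PVT1 fell by 1.73 on the log2 scale (adjusted p = 4e-05, lower in 7 of 7 lines). As a share of the strict peaks of a sample it fell by 0.0125 percentage points (permutation, adjusted p = 0.00016, 7 of 7 lines), and as a share of the distal ones by 0.0180 (adjusted p = 0.00296, 5 of 7 lines). RD went from 13, 15 and 15 strict peaks to 2, 0 and 1, and 22RV1 from 12, 10 and 11 to 1, 2 and 3. MV411 went from 25, 19 and 19 to 9 in each FHT-1015 sample, while its whole strict lists shrank to 47.2%. The PVT1 share in MV411 was 0.0205%, 0.0171% and 0.0180% and then 0.0169%, 0.0171% and 0.0168%, nearly level. DU4475 had 16, 8 and 6 and then 3, 3 and 2, and HCT116 6, 4 and 6 and then 2, 3 and 0. In these 5 lines the numbers did not overlap. In A375, with 25, 22 and 3 and then 1, 26 and 9, and in 92-1, with 18, 4 and 1 and then 1, 0 and 0, they met or overlapped.

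Inside CCDC26 their log2 number fell by 1.27 (adjusted p = 5.33e-05, 7 of 7 lines), but the share of the strict list did not pass the test (-0.00365 points, permutation p = 0.318, adjusted p = 0.363). In 92-1 FHT-1015 replicate 3 a single CCDC26 peak made 0.0708% of its strict list. Without that line the share fell by 0.00565 points (adjusted p = 0.00589, 6 of 6 lines), and of distal strict peaks the difference was -0.00797 points (adjusted p = 0.0670). MV411 went from 27, 25 and 28 peaks to 11, 13 and 11, and its shares of 0.0222%, 0.0225% and 0.0266% and then 0.0206%, 0.0247% and 0.0205% overlapped. RD went from 7, 11 and 9 to 0, 0 and 1 and 22RV1 from 11, 11 and 10 to 2, 5 and 2, and in both the shares did not overlap.

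The smaller numbers inside CASC8, CASC21, LRATD2 and GSDMC, the last a gasdermin gene, fell in the mean over lines by 0.62, 0.64, 0.62 and 0.44 on the log2 scale (adjusted p = 0.00587, 0.00382, 0.00382 and 0.0150). Mean numbers were higher with FHT-1015 for LRATD2 in A375 (3 against 2.33), and in HCT116 for CASC8 (1.67 against 1) and GSDMC (2.67 against 2.33). As shares of the strict lists none of the 4 passed (permutation, adjusted p = 0.315, 0.110, 0.140 and 0.677).

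**Figure D3:**
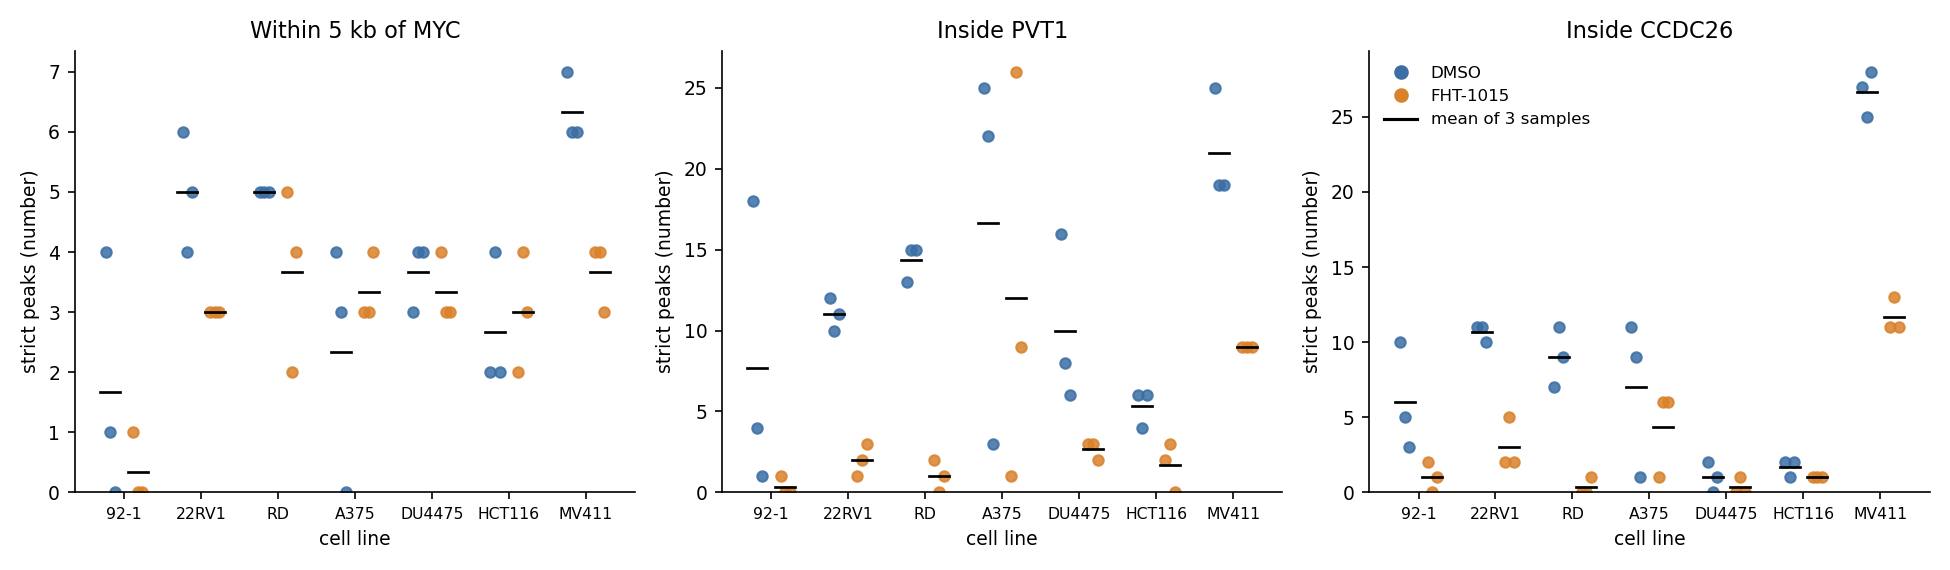
Number of strict peaks in each sample within 5 kb of MYC (left), inside PVT1 (middle) and inside CCDC26 (right), with 3 DMSO and 3 FHT-1015 samples per line and their means as lines. Near MYC the RD samples lie at 5 with DMSO and at 2 to 5 with FHT-1015, while inside PVT1 they lie at 13 to 15 and at 0 to 2.

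The PVT1 side took a smaller part of the strict window peaks with FHT-1015. The share on the higher side fell by 6.67 percentage points (two-sided permutation p = 0.00202), with a lower mean in 6 of 7 lines. The FHT-1015 replicates 2 and 3 of 92-1, with fewer than 10 strict window peaks, were left out. Without that line the share fell by 8.74 points (permutation p = 0.00014), and within 1 Mb by 12.5 (p = 0.00026, lower in all 6 lines that had enough peaks). The share is of all strict window peaks, those at MYC and at gene ends included, and was not tested on distal peaks alone. RD had means of 52.3 distal strict peaks on the higher and 17.7 on the lower side, then 9.67 and 5.67 with FHT-1015. In DU4475 they were 22.7 and 16.3, then 10.7 and 5.67, where the higher side did not lose the larger part.

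The DMSO samples of RD had 66.2%, 70.1% and 68.1% of these peaks there, and the FHT-1015 samples 42.9%, 41.7% and 55.6%. HCT116 had 53.8%, 48.0% and 52.1%, then 41.2%, 40.4% and 36.4%. Neither line's groups overlapped. With DMSO the lines differed in this share by more than replicates did (89.4% of the sum of squares between lines, permutation test of line labels, one-sided, p = 0.00011), RD being highest. Within 1 Mb this difference did not pass the threshold (52.3%; permutation p = 0.0921).

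**Figure D4:**
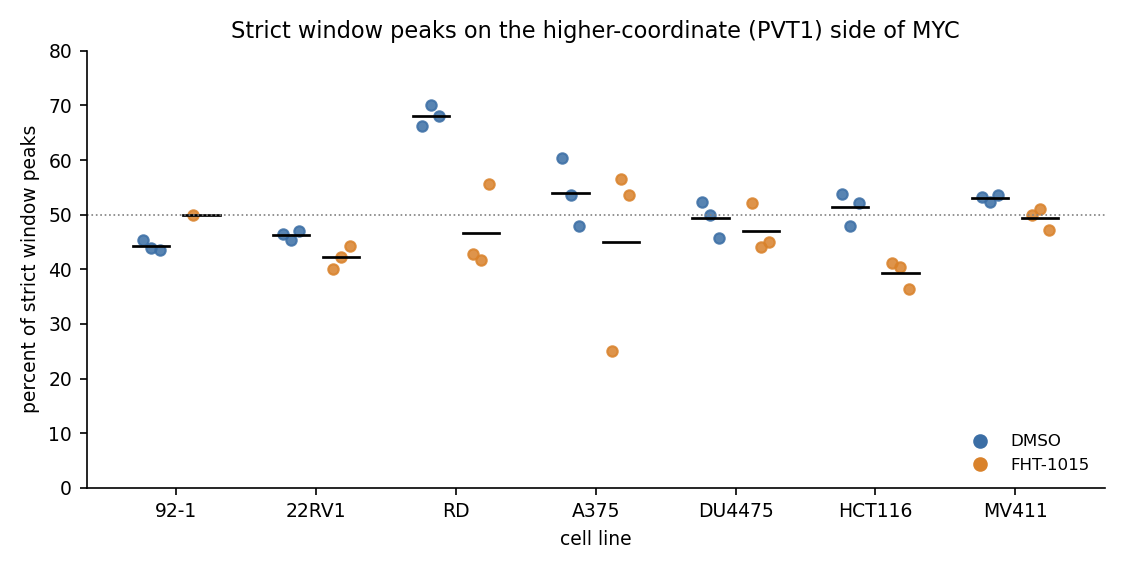
Percent of the strict window peaks of each sample that lie on the higher-coordinate (PVT1) side of MYC, with means as lines; the dotted line is 50%. Samples with fewer than 10 strict window peaks are not drawn, which leaves a single FHT-1015 sample of 92-1, at 50%. The DMSO samples of RD lie at 66.2% to 70.1%.

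Regions that were open with DMSO and had no deposited peak, however weak, in any FHT-1015 sample were called absent. There were 22 in the window, all in 3 lines: 11 of 63 open regions in 22RV1 (8.22% over the genome), 9 of 138 in MV411 (10.8% over the genome) and 2 of 13 in 92-1 (11.5%). RD had 0 of 38 (2.26%), A375 0 of 22 (0.450%), DU4475 0 of 19 (0.505%) and HCT116 0 of 18 (0.681%). All 22 were distal. The count of 22RV1 stood above its genome share and that of MV411 below, with no test of either. Open calls were also taken from pileups thinned within each line, at −log10 p of at least 5. Absence was still read from the full FHT-1015 lists and so was not matched for depth. In this setting 22RV1 had 17 of 78 (10.6% over the genome) and MV411, whose FHT-1015 samples were shallower, 8 of 134 (10.4%).

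Of the 22 absent regions, 15 were line-specific: 7 in 22RV1 (24.0% of line-specific distal regions over the genome, here 7 of 26), 7 in MV411 (16.7%, here 7 of 89) and 1 in 92-1 (29.5%, here 1 of 4). RD had 0 of 9 (8.29%), A375 0 of 4 (1.84%) and DU4475 0 of 3 (1.92%). No region of the window was open with FHT-1015 and without any DMSO peak in any line. Over the genome such regions were rare too, 0.149% of those open with FHT-1015 in 92-1, 0.0551% in 22RV1, 0.0344% in RD, 0.0868% in A375, 0.0323% in DU4475, 0.144% in HCT116 and 0.0717% in MV411.

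The absent regions of 22RV1 lay on both sides. The strongest on the far higher side, 1950 kb from MYC (chr8:129692250-129692749), had folds of 13.9, 15.3 and 11.7 with DMSO. A region 410 kb beyond MYC (chr8:128152961-128153460) had 8.86, 11.2 and 10.7. It lay close to the region at 415 kb, whose strict peaks were present in all 3 FHT-1015 samples. Neighbouring regions thus differed in state.

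On the lower side of 22RV1, the region 139 kb from MYC (chr8:127596181-127596680) had folds of 8.22, 14.6 and 8.99, and 1 inside CASC8 (chr8:127398136-127398635) had 8.41, 11.2 and 10.1. In MV411 the absent regions included 1 inside PVT1, 72.5 kb beyond MYC (folds of 8.70, 15.1 and 6.51), 1 at 648 kb (13.8, 11.1 and 7.86) and 1 at 1784 kb on the lower side (17.1, 6.98 and 13.02). They were spread over the window: each of the 500 kb bands of MV411 held 1 or 2.

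In 92-1 the region at 840 kb (chr8:128583056-128583555) had folds of 12, 6.09 and 6.42, and the 1 at 1100 kb on the lower side 16.04, 10 and 11.02. The latter also had a strict peak in DMSO replicate 2 of A375, at 8.35. FHT-1015 replicates 2 and 3 of 92-1 had a low background (0.0346 and 0.0341). Replicate 1 had 0.299, within the 0.0839 to 0.430 of the DMSO samples, and also had no peak at either region. The part of depth was not tested.

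Many more open regions had no strict peak left, with a weak peak or none. Without a strict peak in any FHT-1015 sample were 42 of 132 open distal regions in MV411 (37.8% over the genome), 28 of 58 in 22RV1 (35.9%), 16 of 34 in RD (39.5%) and 10 of 12 in 92-1 (56.4%). A375 had 3 of 22 (14.6%), DU4475 3 of 15 (13.8%) and HCT116 2 of 16 (11.3%). 92-1 was highest in the window and over the genome, HCT116 lowest in both, and 22RV1 and MV411 lay on opposite sides of their genome shares. These are counts with no test.

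Among the line-specific distal regions, those without a strict peak in any FHT-1015 sample were 30 of 89 in MV411 (48.2% over the genome), 17 of 26 in 22RV1 (65.1%), 4 of 9 in RD (60.2%) and 4 of 4 in 92-1 (82.0%). DU4475 had 2 of 3 (25.7%) and A375 0 of 4 (24.1%).

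**Figure D5:**
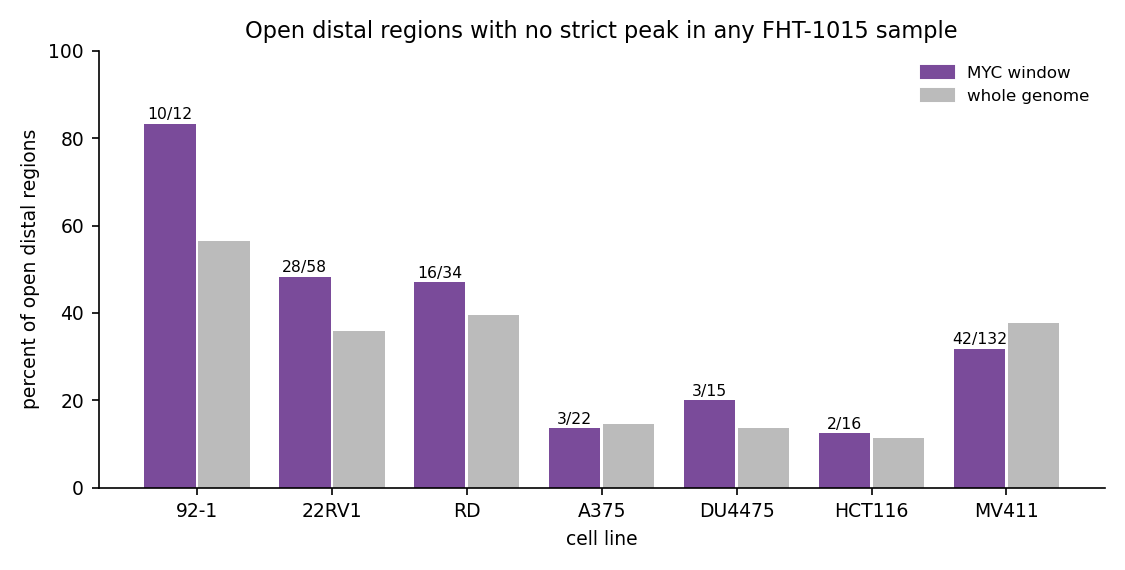
Percent of open distal regions with no strict peak in any FHT-1015 sample, in the MYC window (purple, with counts above) and over the whole genome (grey), per line. 22RV1 stands at 48.3% against 35.9% over the genome, and MV411 at 31.8% against 37.8%.

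No single region around MYC passed a test of being called less or more often over the lines. In an exact stratified test with Benjamini-Hochberg adjustment over 315188 regions, 0 of 645 window regions passed at 0.05, against 0.00127% of all regions, and 27 (4.19%) had fewer calls at an unadjusted p below 0.05, against 2.82%. None had more calls at that level, against 0.0197%. With deposited calls or an overlap of 250 bp the window also gave 0. In this exact test a region called in a single line cannot give a p below 0.1, so it cannot decide on a loss in 1 line. Of the 242 open regions of the window, 193 were open in a single line.

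The region with the lowest p lay 366 kb beyond MYC and outside genes (chr8:128108867-128109366). It had a strict peak in 8 DMSO samples and 0 FHT-1015 samples, being open in 92-1 and RD (p = 0.001, adjusted p = 0.444, exact stratified test). A region inside PVT1 at 168 kb, open in RD, had 9 and 1 (p = 0.005, adjusted p = 0.614, exact stratified test).

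The immediate surroundings of MYC, the gene with 100 kb on each side, held 0.0290% ± 0.00497 of all strict peaks in HCT116 with DMSO, 0.0237% ± 0.00230 in RD and 0.0180% ± 0.00389 in 22RV1. The values were 0.0172% ± 0.00895 in 92-1, 0.0172% ± 0.00281 in DU4475, 0.0145% ± 0.00242 in MV411 and 0.0122% ± 0.0106 in A375 (SD, n = 3). Neighbours in this order lay within their spread. With FHT-1015 the values were 0.0212% ± 0.00425 in HCT116, 0.0255% ± 0.00689 in RD, 0.0159% ± 0.00249 in 22RV1 and 0.0145% ± 0.00306 in DU4475. They were 0.0125% ± 0.00112 in MV411, 0.0168% ± 0.00562 in A375 and, with few strict peaks, 0.00165% ± 0.00285 in 92-1 (SD, n = 3).

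Of 19154 protein-coding genes off chromosome 8 taken in the same way, the 5 most like MYC over the 14 group means were SLC18A2 (Pearson r = 0.93), PFKFB3 (0.90), INSIG1 (0.89), SYTL3 (0.89) and ZNF721 (0.88). These groups share lines and depth, so the values are a description.

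Among 12 partners and relatives of MYC, ends of MAX, the obligate partner, had a strict peak in 21 of 21 DMSO and 20 of 21 FHT-1015 samples. MXD1 and MXD4, which compete for MAX, had 21 and 19 each, and MNT, another such repressor, 18 and 18. MYCN, the relative best known from neuroblastoma, had 16 and 18, and MYCL 19 and 17. The rest were MXD3 with 20 and 18, MLXIP 19 and 19, MXI1 16 and 14, MGA 13 and 11, MLX 10 and 12 and MLXIPL 3 and 1. The share over all gene ends was not counted, so these are a description.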

How the data were processed

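Peak lists of 42 ATAC-seq samples were analysed, grouped by the labels of each sample. Per the submitters' processing notes, Bowtie2, Picard, MACS2, limma and HOMER were used with hg38; no version is named there, and a transposase shift is not given. Each list was per sample. Deposited values of a peak are the fold enrichment (a ratio to background), p and q on the −log10 scale, and a score that was not used, per the authors' narrowPeak lists.

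Summits on chromosomes 1 to 22 and X were set against RefSeq GRCh38.p14. Strict peaks had −log10 q of at least 5. Regions were 500 bp around strict summits, picked by percentile of −log10 p without overlap, and a call needed 100 bp. Labels were permuted within lines (100000 draws). Pileup and background were solved from fold and p (tolerance 0.01), whole for at least 99.95% of peaks, and thinned binomially. The lists hold no counts, so precision is set by depth, which is unknown; 3 samples per group limit it. The region test was tested on simulated data, with losses planted in several lines at once. Python 3.11.15, numpy 2.4.6 and scipy 1.17.1 were used.

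Named regions were those at the ends of MYC and, per line and side, up to 2 line-specific and 2 absent regions of highest percentile, and those open in most lines; others, and the places inside genes, were chosen after their values were seen. The members and lists were chosen with earlier results of these data known. The 3 replicates are called biological in the labels, and p-values measure the spread between these samples.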

Additional observations from a re-analysis of the deposited data

How the results depend on the processing

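The falls in strict number, strict share and higher-side share kept their direction and side of 0.05 in all alternatives run but 1: the share of distal peaks thinned to 0.5 of the lowest background, without 92-1 (-0.0272 points, permutation p = 0.141). That thinning was added after the thinning to the lowest background, where the shallowest sample stays whole, had been seen (-0.0319 points, permutation p = 0.00026). Sizes moved more: the strict number was -0.53 with the 10000 strongest peaks of a list and the higher-side share -3.20 points in deposited lists, and the share of distal peaks among the 10000 strongest was lower in 5 of 7 lines. The shares over distal or chromosome 8 peaks, both thinnings of number and share, the tests of places and their shares, and the comparisons of lines by chromosome 8 and by peak names were also chosen after seeing the data. The number of deposited window peaks passed the threshold with q below 0.05 (-0.37, permutation p = 0.00785) but was -0.0107 (permutation p = 0.864) with lists cut to the shortest of the line, and the share of a deposited list with q below 0.05 (-0.0122 points, permutation p = 0.00721) and without 92-1 (-0.00829, permutation p = 0.00652); within 1 Mb that share turned to 0.000227 points (permutation p = 0.929). The side difference between lines within 1 Mb was 52.3% (permutation p = 0.0921). The share difference between the 3 lines without the word small in their peak names was 72.3% (permutation p = 0.0609). As shares of strict peaks, those within 5 kb of MYC turned to 0.00216 points (permutation p = 0.0335), or 0.00280 without 92-1. Set against the number of distal strict peaks, they turned to 0.0108 (0.0128 without 92-1). In the same way those inside GSDMC turned to 4.7e-05 points (0.000397 without 92-1) and those inside LRATD2 to 0.000817 without 92-1. At these 3 places the peaks counted include those at gene ends, which are not distal. The values are thus not shares of distal peaks, and they rise where distal peaks elsewhere fall. The causes were not tested.

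Replicate numbers did not pair the samples in every line: only in A375 was every same-numbered correlation above 0.1. In MV411 all were positive (0.0388, 0.0697 and 0.108), and each other line had a negative value. With a replicate block the number of deposited window peaks was -0.22 (permutation p = 0.0251), and no other call changed.

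Leaving out each sample in turn gave -0.28 to -0.17 for the deposited number (permutation p from 0.0111 to 0.137), -1.62 to -1.33 for the strict number, -0.00484 to -0.00111 points for the deposited share, -0.0540 to -0.0439 for the strict share, and -8.74 to -5.24 for the side share. Far minus near ran from -1.39 to -1.17.

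Absent regions were counted as 10 in 92-1, 28 in 22RV1, 16 in RD, 3 in A375, 3 in DU4475, 2 in HCT116 and 43 in MV411 where absent meant no strict peak. With −log10 q of at least 10 they were 1 in 92-1, 6 in 22RV1 and 1 in MV411. With an overlap of 250 bp they were 2 in RD, 1 in HCT116 and 20 in MV411. With open calls from thinned pileups they were 17 in 22RV1, 1 in RD and 3 in A375, and 92-1 could not be thinned. Without 1 sample, which loosens the rule, they ran from 2 to 4 in 92-1, 13 to 16 in 22RV1, 0 to 4 in RD, 0 to 3 in A375, 0 to 1 in HCT116 and 13 to 23 in MV411 (21 without DMSO replicate 1, 23 without DMSO replicate 3).

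Line-specific regions with no deposited peak in the other lines were 4 in 22RV1, 2 in RD, 0 in A375, 1 in DU4475 and 25 in MV411. With an overlap of 250 bp there was 1 in 92-1 and 1 in HCT116, and with −log10 q of at least 10 there were 0 in 92-1, 1 in A375 and 1 in DU4475. Without 1 DMSO sample they ran from 4 to 7 in 92-1, 28 to 30 in 22RV1, 10 to 12 in RD, 4 to 15 in A375 (15 without replicate 3), 3 to 8 in DU4475 (8 without replicate 3), 0 to 2 in HCT116 and 97 to 113 in MV411.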
